A study of Mus musculus with 7 samples.

Results

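Reference genes are the yardstick of quantitative real-time PCR (qRT-PCR): the level of a target transcript is divided by that of a gene taken to be equal in all samples. A set of 9 such genes was followed here in nasal tissue of mice that inhaled diesel exhaust particles (DEPs). They are *Gapdh* and *Pgk1* (glycolysis), *Actb* (cytoskeleton), *Hprt* (purine salvage), *Tbp* (basal transcription), *B2m* (antigen presentation), *Ppia* (protein folding), *Gusb* (lysosome) and *Ywhaz* (signalling adaptor). They were chosen by name as commonly used reference genes and by no measured value, though earlier results of these data were known. All probes whose transcript accession belongs to these genes were taken, which gave 9 genes with 18 probes on 45 spots, among 15701 genes with a tested probe.

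Female BALB/c mice, 6 weeks old by the labels, were given 100 ug/m3 DEPs for 1 hour a day on 5 days a week through a nebulizer. Nasal tissue after 4 weeks (4 arrays) and after 8 weeks (3 arrays) of exposure was hybridised together with control nasal tissue. Per the methods, control mice were given saline under the same conditions. The methods describe an exposure of 4 weeks only and do not mention 8 weeks or its controls. The labels name the arrays of an exposure time biological replicates, mention 32 mice and do not say whether the control RNA was pooled or came from a separate mouse for each array. The value of a probe on an array is the log2 ratio of the DEP channel (Cy5) over the control channel (Cy3) on the same array. After scaling, 0 means equal signal and a positive value means more signal in the DEP channel. The dyes were never swapped, so an effect of the dye on a probe cannot be told apart from an effect of DEPs. Each exposure time had a slide of its own, and the effects of slide and time therefore cannot be told apart. The DEP channel of an array had 18601 to 25069 probes well above background and the control channel 16985 to 26927. No spot was saturated. Correlations of the log2 ratios between arrays ran from 0.44 to 0.49 within 4 weeks and from 0.71 to 0.88 within 8 weeks. Precision is limited by how few arrays there are.

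Of the 18 probes, 17 were well above background in both channels of all 7 arrays and were tested. The remaining probe, the dimmer of those for *Tbp*, was well above background on 0 arrays and was not tested. *Gapdh* had 7 probes and *Ywhaz* 3, and probes of a gene are numbered from the brightest. Where a gene is given by a single value, it is that of its brightest tested probe.

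Among the genes of the set, *Gapdh* is the only one for which primers are listed with those of the 5 key genes of the study (*Cfap69*, *Cyp26b1*, *Il1b*, *Il6* and *Synpr*). The text of the study does not name the reference gene of its qRT-PCR. These primers are shown because they are the part of the set that the study lists for qRT-PCR, in lower case and from 5′ to 3′:
Gapdh forward primer, 19 bases: gagaaacctgccaagtatg
Gapdh reverse primer, 18 bases: gttgctgtagccgtattc

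*Gapdh* encodes glyceraldehyde-3-phosphate dehydrogenase, the glycolytic step that oxidises a triose phosphate and yields NADH. At 4 weeks its brightest probe had log2 ratios of 0.73, 0.51, 0.52 and 0.43 on the 4 arrays. At 8 weeks the ratios were 0.20, -0.081 and -0.60. All 4-week arrays were thus above 0 and above every 8-week array, while the 8-week arrays lay on either side of 0. The 4-week mean was 0.55 ± 0.13 (SD, n = 4), a factor of 1.46 (limma, adjusted p = 0.0089). The 8-week mean was -0.16 ± 0.41 (SD, n = 3, limma, adjusted p = 0.39), with a 95% interval from -0.48 to 0.15. With the processed signals of the scanner software it was -0.47 and passed the test (adjusted p = 0.019). The difference between the times, 8 minus 4 weeks, was -0.71, a factor of 1.64 (limma, adjusted p = 0.021, and 0.059 without 8-week replicate 2).

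The values depended on the probe. At 4 weeks the means of the 7 *Gapdh* probes, from the brightest to the dimmest, were 0.55, 0.32, 0.33, 0.41, 0.25, 0.15 and -0.055. The corresponding 8-week means were -0.16, -0.25, -0.27, -0.14, -0.19, -0.63 and -1.01. All 7 had a lower mean at 8 than at 4 weeks, and for 6 of them (all but probe 5) the 4-week and 8-week arrays did not overlap, with 8 weeks lower. Of all probes measured on every array, 21.3% had 8-week arrays wholly below the 4-week arrays, and 41.3% did not overlap in either direction, as did 12 of the 17 member probes. Probes 1 to 4 passed the test at 4 weeks, all of them higher in the DEP channel. At 8 weeks probes 6 and 7 passed it, lower in the DEP channel, and the fall of probe 7 was by a factor of 2.02 (limma, adjusted p = 0.0018). The 7 probes carry the same transcript accession, so they are not separate genes, and they share the RNA of each array.

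**Figure D1:**
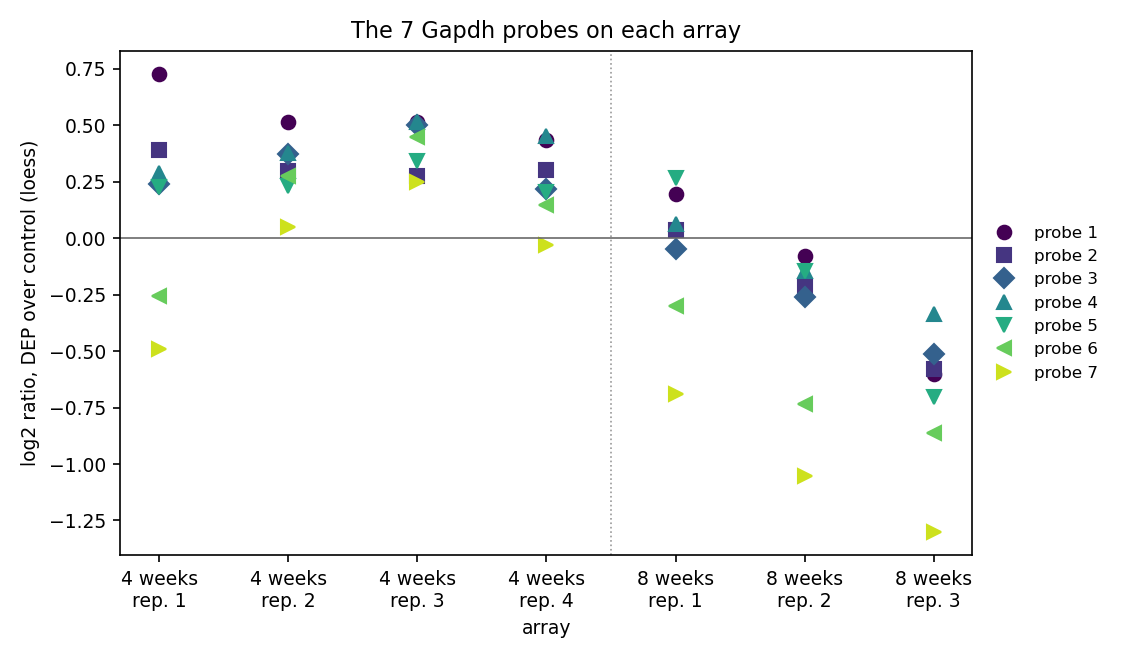
Log2 ratio of DEP over control after loess (vertical axis) for the 7 Gapdh probes on each of the 7 arrays (horizontal axis), 1 symbol per probe, numbered from the brightest. The mean of probes 6 and 7 lies below that of the other 5 on every array, and the 7 probes span between 0.27 and 1.22 on a single array.

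Within an array, the ratios of the 7 *Gapdh* probes spread over 0.27 on 4-week replicate 3 and over 1.22 on 4-week replicate 1. The mean of probes 6 and 7 was below that of the other 5 on all 7 arrays, by 0.080 on 4-week replicate 3 and by 0.75 on 4-week replicate 1, a grouping that was chosen after the values were seen. Probes 1 to 5 alone spread over 0.18 to 0.50 within an array. Where on the transcript each probe lies was not analysed here.

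The channels of the arrays were also looked at one by one. After loess and a scaling of the average signal between arrays, the control channel of the brightest *Gapdh* probe was at 15.58 ± 0.044 (log2 signal, SD, n = 4) on the 4-week arrays and at 15.55 ± 0.042 (n = 3) on the 8-week arrays. The DEP channel was at 16.12 ± 0.098 and at 15.38 ± 0.37. The control channels of all 7 arrays lay between 15.50 and 15.64, and every 4-week DEP channel lay above them, at 16.07 to 16.27. The 8-week DEP channels ran from 14.98 to 15.70 and overlapped the controls.

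*Pgk1*, phosphoglycerate kinase, is the enzyme that follows *Gapdh* in glycolysis, and it did not share that pattern. Its log2 ratios at 4 weeks were -0.014, -0.0020, 0.060 and -0.058, close to 0 on every array. At 8 weeks they were 0.22, 0.073 and 0.27, all above the 4-week arrays. The 4-week mean was -0.0036 ± 0.049 (SD, n = 4), with a 95% interval from -0.12 to 0.11. The 8-week mean was 0.19 ± 0.10 (SD, n = 3, limma, adjusted p = 0.035). That call was lost under median centring of the arrays, where the 8-week mean was -0.11 (adjusted p = 0.26), and without 4-week replicate 2 or 4 or 8-week replicate 1 or 3. It held in 4 of 14 alternatives.

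The other glycolytic enzymes, 17 genes listed without the members, were more often higher than lower at 4 weeks. Of these, 9 rose (9 of 17, against 20.3% of all genes), 1 fell and 7 did not pass the test, and the list's median log2 ratio was 0.18 beside -0.010 over all genes. *Gpi1*, the isomerase of glucose 6-phosphate, had 0.43 (adjusted p = 0.00035), *Aldoa*, an aldolase, 0.41 (adjusted p = 0.016) and *Ldha*, a lactate dehydrogenase subunit, -0.29 (adjusted p = 0.014). At 8 weeks 1 rose and 11 fell (19.6% of all genes fell), with a median of -0.35. *Pgam1*, phosphoglycerate mutase, fell to -0.59 (adjusted p = 0.00027), *Aldoa* to -0.57 (adjusted p = 0.0070), and *Pfkp*, a phosphofructokinase, rose to 0.25 (adjusted p = 0.047, and 0.63 under median centring). Under median centring the counts at 4 weeks were 4 higher and 2 lower, and at 8 weeks 0 higher and 14 lower. Over all genes, in either direction, 38.4% passed the test at 4 weeks and 37.1% at 8 weeks after loess. Median centring gave shares of 36.4% and 47.6%. The counts of all lists and markers below are to be read beside these shares.

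Markers of other cells were set beside *Gapdh* and this list. Of 9 olfactory neuron markers, 6 rose and 0 fell at 4 weeks (median 0.44), and 0 rose and 8 fell at 8 weeks (median -0.46). *Omp*, the olfactory marker protein, was at 0.89 and then at -0.43. Their summed signal was 149062 to 163898 in the DEP channel and 82362 to 97430 in the control channel at 4 weeks, and 97364 to 101873 and 135595 to 152173 at 8 weeks. Of 11 skeletal muscle markers 3 rose and 2 fell at 4 weeks, and 1 rose and 6 fell at 8 weeks, with a median of 0.059 and -0.45. Their summed signal at 4 weeks was 148021 to 183266 in the DEP channel and 146680 to 155954 in the control channel. At 8 weeks the ranges were 78399 to 84234 and 100346 to 104783. All 9 neuron and 11 muscle markers were well above background in each channel of every array, so none was at 0. Their part in the *Gapdh* values was not tested, and in whole tissue fewer cells of a type and less RNA per cell cannot be told apart.

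*Actb* encodes cytoplasmic beta-actin and was measured by 1 probe. Its log2 ratios at 4 weeks were -0.31, 0.31, 0.40 and 0.58. At 8 weeks they were -0.085, 0.054 and -0.18. Replicate 1 of 4 weeks stood on the other side of 0 from the other 3 arrays, and the exposure times overlapped. The 4-week mean was 0.24 ± 0.39 (SD, n = 4, limma, adjusted p = 0.18), and without replicate 1 it was 0.43 (adjusted p = 0.0060). Its 95% interval, from -0.058 to 0.55, was the widest of the 9 genes at this time. At 8 weeks the mean was -0.071 ± 0.12 (SD, n = 3), with an interval from -0.42 to 0.28.

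Of 11 other actins and actin-binding proteins, 0 rose and 4 fell at 4 weeks, and 1 rose and 5 fell at 8 weeks (median -0.15 and -0.28). The members that fell at both times included *Actc1*, cardiac alpha-actin, at -0.53 and -0.91 (adjusted p = 0.00050 and 5.4e-05), and *Pfn2*, a profilin, at -0.15 and -0.49 (adjusted p = 0.044 and 0.00045). *Actg1*, the other cytoplasmic actin, was at -0.15 at 4 weeks (adjusted p = 0.068) and rose to 0.22 at 8 weeks (adjusted p = 0.033, and 0.15 under median centring). The list overlaps the muscle markers in *Acta1*, which was at -0.95 at 8 weeks.

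*Hprt* encodes hypoxanthine phosphoribosyltransferase, which returns purine bases to nucleotides, and its probe was printed on 10 spots. At 4 weeks its log2 ratios were 0.065, 0.053, -0.020 and -0.22. At 8 weeks they were 0.21, 0.35 and 0.61, all above 0 and above the 4-week arrays. The 4-week mean was -0.031 ± 0.13 (SD, n = 4), and the 8-week mean was 0.39 ± 0.20 (SD, n = 3, limma, adjusted p = 0.011). The difference between the times was 0.42, a factor of 1.34 (limma, adjusted p = 0.030). Under median centring the 8-week mean was 0.063 (adjusted p = 0.65) and the difference 0.20 (adjusted p = 0.28). Without 8-week replicate 2 or 3 the 8-week adjusted p was 0.052 or 0.059, and without 4-week replicate 3 or 4 or 8-week replicate 2 or 3 that of the difference was 0.056 to 0.087.

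The other genes of purine salvage, 8 tested of 9 listed, gave 1 higher and 4 lower at either time. *Ada*, adenosine deaminase, was the lowest, at -2.48 at 4 weeks and -1.54 at 8 weeks (adjusted p = 1.7e-07 and 2.7e-06). *Aprt*, the adenine counterpart of *Hprt*, was at 0.21 at 4 weeks (adjusted p = 0.068) and rose to 0.34 at 8 weeks (adjusted p = 0.020).

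*B2m* encodes beta-2-microglobulin, the light chain of MHC class I molecules at the cell surface. Its log2 ratios at 4 weeks were -0.11, -0.34, -0.51 and -0.39, below 0 on all 4 arrays. At 8 weeks they were 0.33, 0.33 and 0.19, above 0 on all 3. It fell at 4 weeks to a mean of -0.34 ± 0.17 (SD, n = 4, limma, adjusted p = 0.0070, a call lost in 1 of 14 alternatives, with adjusted p = 0.086) and rose at 8 weeks to 0.29 ± 0.080 (SD, n = 3, limma, adjusted p = 0.024). The difference of 0.62, a factor of 1.54, passed the test too (limma, adjusted p = 0.0040). Under median centring the 4-week mean was -0.45 (adjusted p = 0.0035) and the difference 0.42 (adjusted p = 0.031), but the 8-week mean was -0.030 (adjusted p = 0.82), so the sign of the 8-week value rested on the scaling. The 8-week call was also lost without 8-week replicate 1 (adjusted p = 0.097) or 2 (adjusted p = 0.12). In the separate channels the control signal was at 11.01 ± 0.048 and 10.95 ± 0.011 at 4 and 8 weeks, and the DEP signal at 10.67 ± 0.15 and 11.24 ± 0.075.

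Of 10 other tested genes of MHC class I presentation, 3 fell and 0 rose at 4 weeks. These were the heavy chains *H2-K1* at -0.33 (adjusted p = 0.0067) and *H2-D1* at -0.23 (adjusted p = 0.020), and the peptide transporter subunit *Tap2* at -0.22 (adjusted p = 0.031). At 8 weeks *Tap2* (0.23, adjusted p = 0.044) and the regulator *Nlrc5* (0.23, adjusted p = 0.032) rose and *Tapbp*, tapasin, fell (-0.29, adjusted p = 0.0039). The values of *H2-K1* and *H2-D1* were then 0.080 and -0.00074 and did not pass the test. In the markers of T and B cells, 1 of 6 rose and 2 fell at 4 weeks, and 4 rose and 0 fell at 8 weeks, with a median of -0.13 and 0.39. Their summed signal was 1616 to 1851 in the DEP channel and 1403 to 1603 in the control channel at 4 weeks, and 1704 to 2680 and 1460 to 1602 at 8 weeks, with 2 of the 6 well above background on the array with fewest. Of 7 macrophage markers 0 rose and 2 fell at 4 weeks, and 1 rose and 1 fell at 8 weeks. Their part in the *B2m* values was not tested.

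*Gusb* encodes beta-glucuronidase of the lysosome, and its probe too was printed on 10 spots. The log2 ratios at 4 weeks were 0.11, 0.18, 0.20 and 0.13, and at 8 weeks -0.31, -0.32 and -0.29. After loess all 4-week arrays were above 0 and all 8-week arrays below it, and the spread within each time was the smallest of the set. The 4-week mean was 0.16 ± 0.042 (SD, n = 4, limma, adjusted p = 0.021), the 8-week mean -0.30 ± 0.016 (SD, n = 3, limma, adjusted p = 0.0022), and the difference -0.46, a factor of 1.38 (limma, adjusted p = 0.0017). Under median centring the 4-week mean was 0.055 (adjusted p = 0.50) and the 8-week mean -0.62 (adjusted p = 0.00033). The 4-week arrays then lay on either side of 0, and their SD of 0.127 was above that of *Pgk1* (0.121). The 4-week call was also lost without 4-week replicate 2, 3 or 4, with adjusted p between 0.055 and 0.090. In the separate channels it was the control signal that differed between the times, at 9.45 ± 0.085 on the 4-week and 9.88 ± 0.089 on the 8-week arrays, while the DEP signal was at 9.60 ± 0.055 and 9.58 ± 0.074. The 8-week control channels came from the other slide.

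Of 12 other lysosomal hydrolases 2 rose and 2 fell at 4 weeks, and 1 rose and 4 fell at 8 weeks (median 0.011 and -0.17). *Galns*, a sulfatase, rose at both times, to 0.70 (adjusted p = 6.8e-05) and 0.46 (adjusted p = 0.00092). *Man2b1*, lysosomal alpha-mannosidase, was at 0.010 at 4 weeks (adjusted p = 0.93) and fell to -0.98 at 8 weeks (adjusted p = 0.00013).

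*Ywhaz* encodes 14-3-3 zeta, which binds phosphorylated proteins, and its 3 probes disagreed. The brightest had log2 ratios of 0.35, 0.37, 0.16 and 0.20 at 4 weeks and of -0.068, -0.15 and -0.31 at 8 weeks. It was thus above 0 on every 4-week array and below 0 on every 8-week array. Its 4-week mean was 0.27 ± 0.11 (SD, n = 4, limma, adjusted p = 0.010), its 8-week mean -0.18 ± 0.12 (SD, n = 3, limma, adjusted p = 0.081) and the difference -0.45, a factor of 1.36 (limma, adjusted p = 0.0094). Under median centring the 4-week mean was 0.18 (adjusted p = 0.094) and the 8-week mean -0.40 (adjusted p = 0.0068).

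The middle *Ywhaz* probe, which carries another transcript accession of the gene, was at -0.22, -0.29, -0.15 and -0.31 at 4 weeks and at 0.080, -0.0020 and -0.18 at 8 weeks. Its 4-week mean of -0.24 ± 0.075 (SD, n = 4, limma, adjusted p = 0.013) lay on the opposite side of 0 from that of the brightest. The dimmest was at -0.082, 0.10, -0.046 and -0.071 at 4 weeks and at -0.33, -0.50 and -0.20 at 8 weeks. It did not pass the test at 4 weeks (mean -0.025, adjusted p = 0.76) and fell at 8 weeks to -0.34 ± 0.15 (SD, n = 3, limma, adjusted p = 0.0074).

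Of 6 other 14-3-3 genes, 0 rose and 4 fell at 4 weeks, and 1 rose and 2 fell at 8 weeks (median -0.26 and -0.21). *Ywhaq* was the lowest at both times, at -0.48 and -0.57 (adjusted p = 0.0038 and 0.0030), followed by *Ywhag* at -0.41 and -0.46 (adjusted p = 0.00063 and 0.00070). *Sfn*, the epithelial 14-3-3 sigma, fell to -0.25 at 4 weeks (adjusted p = 0.0080) and rose to 0.21 at 8 weeks (adjusted p = 0.027).

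*Ppia* encodes cyclophilin A, a prolyl isomerase that helps proteins to fold. Its log2 ratios at 4 weeks were -0.039, -0.15, -0.17 and -0.26, and at 8 weeks 0.053, -0.013 and -0.070. All 4-week arrays were below 0, the 8-week arrays lay on either side of it, and the exposure times overlapped. Its 4-week mean of -0.16 ± 0.092 (SD, n = 4) passed the test (limma, adjusted p = 0.044), but not under median centring (adjusted p = 0.075) and in 2 of the 7 fits that left out an array only. Those without 4-week replicate 2, 3 or 4 or 8-week replicate 1 or 2 gave adjusted p between 0.050 and 0.16. Of all 14 alternatives tried, 10 lost this call. The 8-week mean was -0.0098 ± 0.062 (SD, n = 3), with a 95% interval from -0.15 to 0.13, but with the processed signals it was -0.30 (adjusted p = 0.0057).

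Of 8 other cyclophilins 0 rose and 2 fell at 4 weeks, and 4 rose and 1 fell at 8 weeks (median -0.044 and 0.18), where median centring gave 0 higher and 2 lower (median -0.061). *Ppic*, a cyclophilin of the secretory pathway, fell to -0.74 at 4 weeks (adjusted p = 0.00038) and rose to 0.51 at 8 weeks (adjusted p = 0.0040). *Ppib*, itself used as a reference gene, was at -0.040 and 0.33 (adjusted p = 0.66 and 0.011).

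*Tbp* encodes the TATA-box binding protein, which sits at the core of the transcription initiation machinery. Its tested probe gave log2 ratios of -0.011, 0.24, -0.0094 and 0.11 at 4 weeks and of 0.028, 0.16 and -0.054 at 8 weeks. The exposure times overlapped, and arrays of either time lay on both sides of 0. The 4-week mean was 0.082 ± 0.12 (SD, n = 4), with a 95% interval from -0.058 to 0.22. The 8-week mean was 0.043 ± 0.11 (SD, n = 3), with an interval from -0.12 to 0.20. Neither passed the test (limma, adjusted p = 0.31 and 0.68). With the processed signals of the scanner software in place of the background-corrected medians, however, *Tbp* was at 0.32 at 4 weeks (adjusted p = 0.025), at -0.16 at 8 weeks (adjusted p = 0.24) and at -0.48 in the difference (adjusted p = 0.030). The untested *Tbp* probe, not well above background, gave between -0.15 and 0.11 over the 7 arrays.

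Of 11 other general transcription factors tested, 1 rose and 0 fell at 4 weeks, and 2 rose and 1 fell at 8 weeks (median -0.0011 and 0.046). *Taf4*, a subunit of the complex that holds *Tbp*, rose at both times, to 0.17 and 0.28 (adjusted p = 0.048 and 0.014). *Taf10*, of the same complex, fell at 8 weeks to -0.42 (adjusted p = 0.0041), and *Gtf2b* rose to 0.48 (adjusted p = 0.0030).

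**Figure D2:**
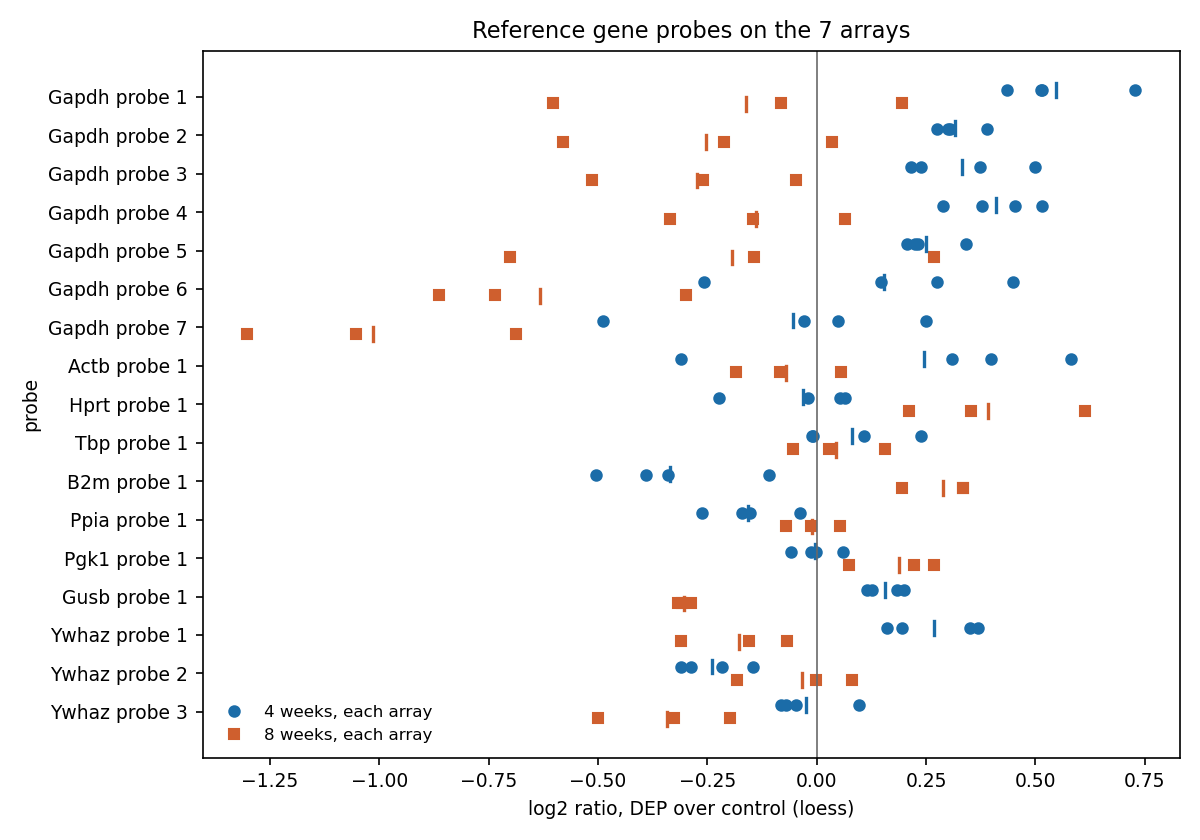
Log2 ratio of DEP over control after loess (horizontal axis) for the 17 tested probes of the 9 reference genes (vertical axis), with circles for the 4 arrays of 4 weeks, squares for the 3 arrays of 8 weeks and short vertical lines for the means. The arrays of Gusb cluster tightly on opposite sides of 0, those of B2m on opposite sides the other way, and those of Tbp and Ppia stay near 0 at both times.

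Counted over probes, 9 of 17 member probes passed the test at 4 weeks, 4 of them for *Gapdh*, beside 37.0% of all tested probes. Of these 6 were higher and 3 lower, beside 20.8% and 16.2% of all probes. At 8 weeks it was 7 of 17, beside 36.1%, with 3 higher and 4 lower, beside 18.8% and 17.4%. For the difference between the times 11 of 17 passed, 6 of them for *Gapdh*, beside 30.0%, with 2 higher and 9 lower, beside 13.9% and 16.1%. By the brightest probe of each gene the counts were 5 of 9 genes at 4 weeks (38.4% of all genes), 4 of 9 at 8 weeks (37.1%) and 5 of 9 for the difference (31.7%). Since 7 of the 17 probes belong to *Gapdh*, the counts over probes weigh that gene most. *Tbp* and *Actb* were the only genes of the set without a called probe in any of these comparisons.

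The thresholds of the study's methods (p of at most 0.01 and a change of at least 2-fold) were passed by 0 of 17 probes at 4 weeks (1.12% of all tested probes) and by 1 at 8 weeks (2.67%), which was *Gapdh* probe 7. With limma at an unadjusted p of at most 0.05 and no limit on the fold, 9 of 17 probes passed at 4 weeks and 10 at 8 weeks. The share of all tested probes at this threshold was not computed. It is at least the 37.0% and 36.1% that passed at an adjusted p of at most 0.05.

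Intervals say how large a change these arrays leave possible. On the log2 scale the 95% intervals of 17 of 17 member probes at 4 weeks and of 16 at 8 weeks lay within 1 of 0, beside 94.7% and 93.1% of all tested probes. Within 0.5 of 0 lay those of 11 of 17 at 4 weeks and 12 of 17 at 8 weeks, beside 74.7% and 67.1%, and of 4 of 17 in the difference between the times, beside 52.2%. By the brightest probe of each gene, those within 0.5 were all but *Gapdh* and *Actb* at 4 weeks, all but *Hprt* at 8 weeks, and *Tbp*, *Ppia* and *Pgk1* in the difference. Under median centring 9 of 17 probes at 4 weeks and 6 of 17 at 8 weeks lay within 0.5, beside 71.7% and 55.5% of all probes. The genes within it at 8 weeks were then *Hprt*, *Tbp*, *B2m*, *Ppia* and *Pgk1*, with *Gapdh*, *Actb*, *Gusb* and *Ywhaz* outside. By the SD of its log2 ratio over the 7 arrays *Tbp* was at 0.11 and the brightest *Gapdh* probe at 0.45. A smaller SD was found in 12.1% of all tested probes for *Tbp*, 12.7% for *Ppia* and 19.3% for *Pgk1*. The share was 82.2% for *B2m* and 89.2% for *Gapdh*.

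The scaling moved the 8-week values more than those of 4 weeks. Loess removes any trend of the ratio with brightness, whereas median centring shifts each array by a constant. Under median centring the 8-week ratios of bright probes were lower, with a median of -0.31, -0.35 and -0.23 in groups 8, 9 and 10 when all tested probes are cut into 10 equal groups by brightness, beside -0.11 over all of them. At 4 weeks the same groups had -0.078, -0.11 and -0.077. *Gapdh*, *Actb*, *Ppia* and *Pgk1* belonged to group 10, the brightest, *Hprt* and *B2m* to group 9, *Gusb* to group 8, *Ywhaz* to group 7 and *Tbp* to group 4. Under median centring 4 of 17 member probes passed at 4 weeks, beside 35.7% of all probes, with 2 higher and 2 lower, beside 15.0% and 20.7%. At 8 weeks 8 passed, beside 44.1%, with 0 higher and 8 lower, beside 11.2% and 32.9%, and 5 of the 8 were for *Gapdh*. Over genes it was 2 of 9 at 4 weeks (36.4% of all genes), *Gapdh* and *B2m*, and 2 of 9 at 8 weeks (47.6%), *Gusb* and *Ywhaz*.

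The lists around the members moved with the scaling as well, mostly at 8 weeks, when the median over all genes was -0.019 after loess and -0.16 after median centring. At 8 weeks median centring gave 0 higher and 8 lower for the actins, 0 and 7 for purine salvage, 1 and 3 for MHC class I presentation, 0 and 11 for the lysosomal hydrolases, 0 and 5 for the 14-3-3 genes and 0 and 3 for the general transcription factors. Over all genes 47.6% passed the test in that setting, in either direction. *Tap2* and *Sfn* then stood at -0.087 and -0.053, on the other side of 0 from their loess values. Of the genes named above as higher at 8 weeks, *Aprt*, *Galns*, *Ppic*, *Ppib*, *Taf4* and *Gtf2b* kept a positive ratio but did not pass the test, with adjusted p between 0.16 and 0.95. *Taf4* did not pass it at 4 weeks either (adjusted p = 0.19).

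**Figure D3:**
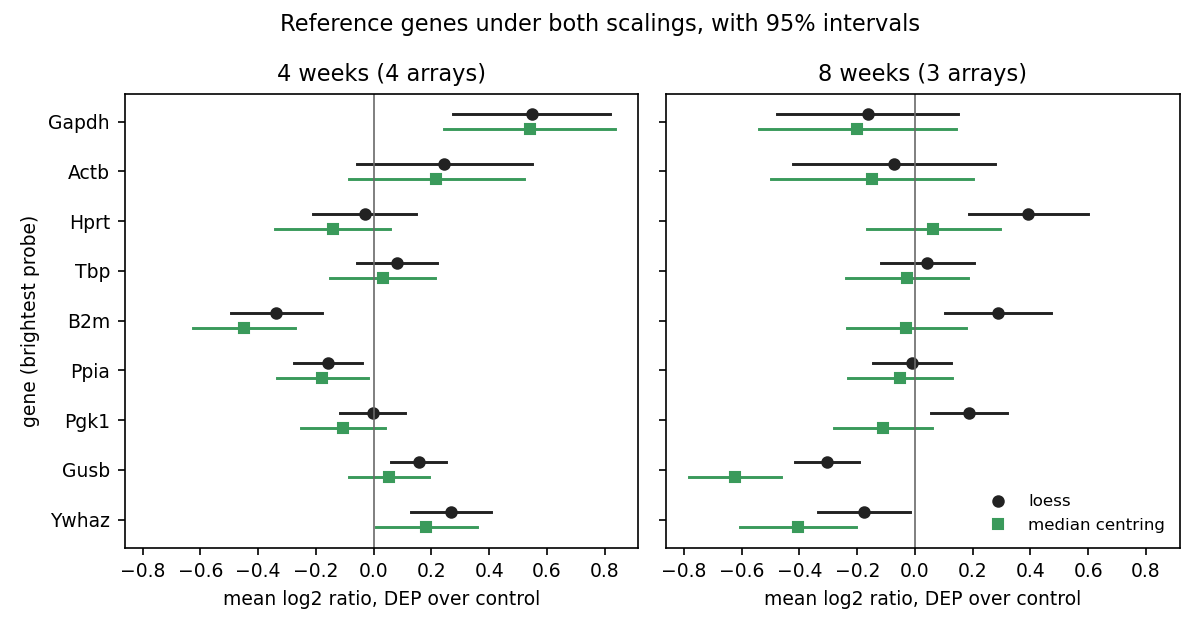
Mean log2 ratio of DEP over control (horizontal axis) with its 95% interval for the brightest probe of each reference gene (vertical axis), at 4 weeks in the left panel and at 8 weeks in the right, after loess (black circles) and after median centring (green squares). The means of B2m, Pgk1 and Tbp at 8 weeks change sign between the scalings, and that of Gapdh at 4 weeks stays above 0 under both.

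Differences between 2 reference genes on the same array are free of any constant shift of that array. The SD of such a difference over the 7 arrays was smallest for *Pgk1* with *Ppia*, at 0.10, and for *Gusb* with *Ywhaz*, at 0.12. It was largest for *B2m* with *Gapdh*, at 0.74, and for *Gapdh* with *Hprt*, at 0.70. Averaged over its 8 partners, a gene's spread was lowest for *Tbp* (0.288), *Ppia* (0.293) and *Pgk1* (0.307). *Ywhaz* and *Gusb* followed at 0.338 and 0.341, then *Hprt* at 0.400, *Actb* at 0.425, *B2m* at 0.465 and *Gapdh* at 0.492. Neighbours in this order differed by little, and no test was made of the order. Each gene stood by its brightest probe. The other probes of *Gapdh* and *Ywhaz*, which gave other ratios, were not ranked. The place of *Tbp* rests on a dim probe. An offset draws the ratios of dim probes toward 0, and its part in this place was not tested. *Gapdh* was last under median centring too (0.455), where *Pgk1* came before *Tbp* and *Ppia* (0.285, 0.290 and 0.303).

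**Figure D4:**
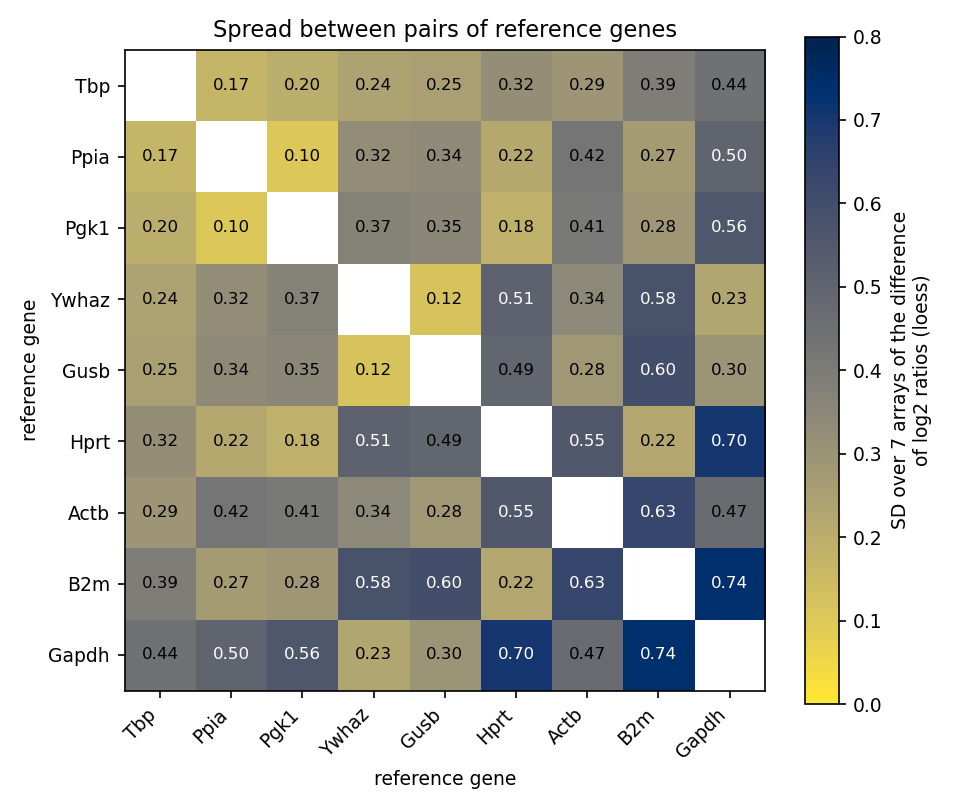
SD over the 7 arrays of the difference between the log2 ratios (loess) of each pair of reference genes, by colour and number, with genes ordered by their mean over all partners. The pairs of Gapdh with B2m and with Hprt are the darkest, at 0.74 and 0.70, and Pgk1 with Ppia is the lightest, at 0.10.

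The order depended on the exposure time. Over the 4-week arrays alone *Ppia* had the lowest mean spread (0.145) and *Actb* the highest (0.450). Over the 8-week arrays alone *B2m* had the lowest (0.139) and *Gapdh* the highest (0.394). Over the 4-week arrays *B2m* had the highest mean spread but for *Actb* (0.202), and *Gapdh* stood at 0.168. Over the 14 single channels *Ppia* was lowest (0.264), followed by *Tbp* at 0.264 and *Pgk1* at 0.273, and *Gapdh* was highest (0.353).

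Probes printed on several spots give the spread within an array. The SD over the 10 spots of an array had a median over arrays of 0.094 for *Hprt* and 0.085 for *Gusb*. Between arrays, the SD of the mean over the spots was 0.13 and 0.20 for *Hprt* at 4 and 8 weeks, and 0.042 and 0.016 for *Gusb*.

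The 5 key genes of the study were set against each reference gene on the same array, to show what a ratio to that gene would read here. At 4 weeks *Cfap69*, a ciliary protein of olfactory neurons, had a log2 ratio of 0.59 ± 0.035 (SD, n = 4, limma, adjusted p = 0.00012). Minus that of the brightest *Gapdh* probe it was 0.040 ± 0.10, from -0.10 to 0.13 on the 4 arrays, and thus on either side of 0. Against *Gapdh* probes 2 to 7 the means were 0.27, 0.26, 0.18, 0.34, 0.43 and 0.64, with every array above 0. Relative to *B2m* the mean was 0.92 ± 0.14. The means against *Tbp*, *Ppia* and *Pgk1* were 0.51, 0.74 and 0.59. The paper also measured the key genes directly, by qRT-PCR on the same nasal tissue, and reports changes similar to those on its arrays. Those measurements were not re-analysed here, and the array differences above do not replace them.

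*Cyp26b1*, which degrades retinoic acid, had a log2 ratio of 0.89 ± 0.16 (SD, n = 4, limma, adjusted p = 0.00014). It stood at 0.34 ± 0.27 relative to *Gapdh*, at 1.23 ± 0.27 relative to *B2m* and at 0.81 ± 0.11 relative to *Tbp*. For *Il1b*, a pro-inflammatory cytokine, the own value was -0.92 ± 0.081 (SD, n = 4, limma, adjusted p = 2.3e-05), and the relative means ran from -1.47 against *Gapdh* to -0.58 against *B2m*. *Il6*, likewise a cytokine, was at -2.09 ± 0.21 (SD, n = 4, limma, adjusted p = 1.0e-05), with -2.63 against *Gapdh* and -1.75 against *B2m*. *Synpr*, the synaptic vesicle protein synaptoporin, was at -0.57 ± 0.20 (SD, n = 4, limma, adjusted p = 0.0014), with -1.12 against *Gapdh* and -0.24 against *B2m*.

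The choice among the 9 genes moved each of these means by the same amount, since the reference is subtracted from all of them alike. It was 0.88 on the log2 scale, a factor of 1.85, and under median centring by 0.99, a factor of 1.99. The choice among the 7 *Gapdh* probes alone moved them by 0.60, a factor of 1.52. No mean changed sign with the choice after loess. Under median centring *Cfap69* stood at -0.057 against *Gapdh* and at 0.93 against *B2m*.

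**Figure D5:**
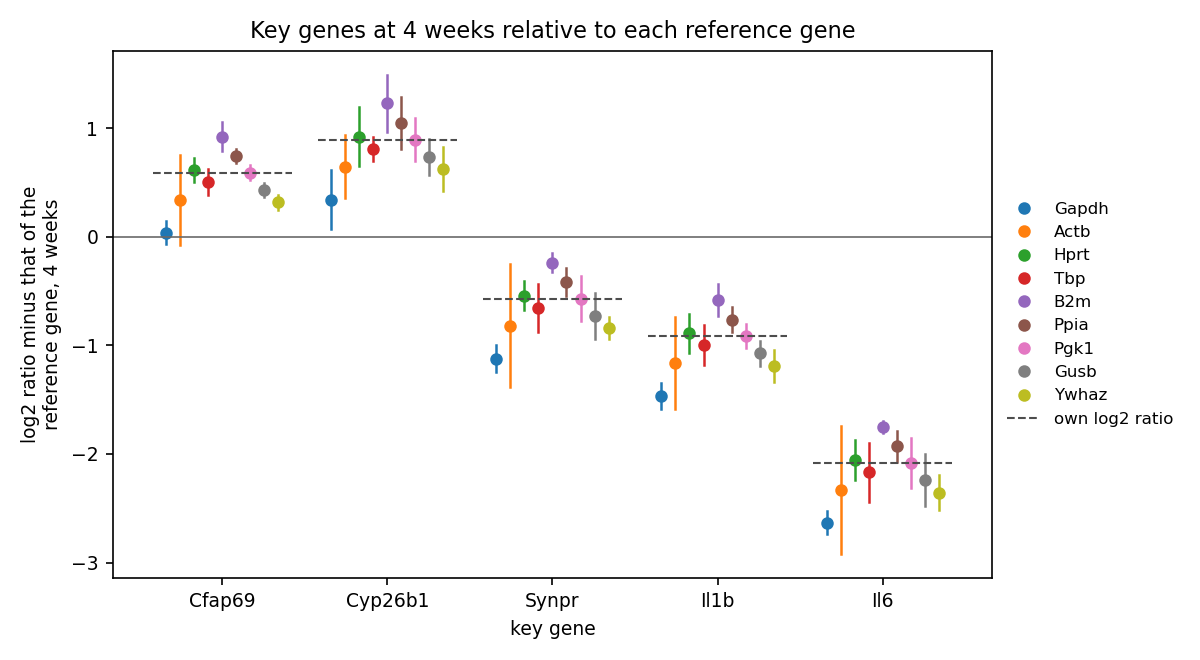
Log2 ratio of each key gene minus that of a reference gene on the same array at 4 weeks (vertical axis), for the 5 key genes (horizontal axis) and the 9 reference genes (colours), as mean with SD over 4 arrays, and the key gene's own log2 ratio as a dashed line. The lowest point of each key gene is that against Gapdh and the highest that against B2m, and Cfap69 against the brightest Gapdh probe lies at 0.040.

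At 8 weeks *Synpr* alone of the 5 key genes passed the test after loess (3 of 5 did after median centring), at -0.86 ± 0.13 (SD, n = 3, limma, adjusted p = 0.00034). Relative to the brightest probes of the reference genes it ran from -0.55 against *Gusb* to -1.25 against *Hprt*, and it was -0.70 ± 0.53 against *Gapdh* and -1.05 ± 0.10 against *Pgk1*. Against *Gapdh* probes 2 to 5 it was -0.61, -0.59, -0.72 and -0.67. Probes 6 and 7 gave -0.23 ± 0.40 and 0.16 ± 0.42, so the sign turned with the *Gapdh* probe. Under median centring these 2 values were 0.0016 and 0.38. *Il6* was well above background in neither channel of any 8-week array.

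A list of 17 further genes in use as references was looked at for comparison. At 4 weeks 4 rose and 3 fell, and at 8 weeks 6 rose and 5 fell, with a median of -0.020 and 0.051. Over all genes 38.4% passed the test at 4 weeks and 37.1% at 8 weeks, in either direction. Under median centring the counts of the list were 1 and 3 at 4 weeks and 1 and 6 at 8 weeks. Its median was then -0.082 and -0.054, and 36.4% and 47.6% of all genes passed. *Polr2a*, the large subunit of RNA polymerase II, was at 0.43 at both times (adjusted p = 0.0042 and 0.0079, the latter 0.20 under median centring). *Rpl13a* and *Rplp0*, of the large ribosomal subunit, were at 0.0088 and -0.061 at 4 weeks and at 0.11 and -0.019 at 8 weeks, with adjusted p between 0.24 and 0.92. *Sdha*, of the respiratory chain, was at -0.032 and -0.14 (adjusted p = 0.63 and 0.098). *Atp5b*, of the ATP synthase, was at 0.061 and -0.55 (adjusted p = 0.41 and 0.00054).

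Among the genes whose log2 ratios were closest to the brightest *Gapdh* probe, by root mean square difference over the 7 arrays among 15493 genes, were *Gm5523* (0.041) and *Gm12070* (0.11). Both are annotated as transcribed pseudogenes. *Gm5523* had ratios of 0.67, 0.47, 0.53 and 0.45 at 4 weeks and of 0.17, -0.032 and -0.55 at 8 weeks. Whether these probes share sequence with *Gapdh* was not analysed here, so a value of theirs may not be separate from that of *Gapdh*.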

How the data were processed

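Per the labels, RNA of nasal tissue was labelled with Cy5 (DEP) and Cy3 (control) and hybridised to 2-colour Agilent arrays. The deposited scanner files hold spot intensity as read by the authors with Agilent Feature Extraction 10.10.1.1, per the file headers, with no normalization between arrays. The methods name GeneSpring for normalization with no settings, and its output was not used here.

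Median intensities were background-corrected in limma 3.58.1 (R 4.3.3) by normexp with an offset of 50, fitted without spots marked as background outliers and applied to all spots, since a few such spots on 4-week replicate 2 distort the fit. Loess followed within each array, with control spots at weight 0. Not-uniform spots were left out and repeated spots averaged. A probe was tested where 1 channel or both stood well above background on 3 or more of the 7 arrays (25162 of 39429). Each exposure time had a mean log2 ratio in lmFit and eBayes over all 7 arrays, with Benjamini-Hochberg adjustment over all tested probes, and a probe was called at an adjusted p of at most 0.05. Intervals are at 95% and come from the same fit. A gene is given by its brightest tested probe, and the text names all members, the 5 key genes, the members of the lists that passed the test or had the highest or lowest ratio, and the 3 genes closest to *Gapdh*, except that some genes the rule names are not reported here. Single-channel levels came from loess followed by Aquantile.

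The files hold accessions and no gene names, so probes were named through RefSeq's table of GRCm38.p6 (28330 of 39429 matched). Positions were not used here, because the array files are annotated on another build.

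Members, lists and markers were chosen with earlier results of these data known. The fit was tested on simulated data of 25162 probes for the 4-week comparison. Of 50 probes changed at each size it recovered 88% at a log2 ratio of -1, 78% at -0.5, 68% at 0.5 and 84% at 1. Only 200 probes were changed there, a far smaller share than the 37.0% of tested probes called at 4 weeks. The simulated noise was also independent between probes, so these recovery shares need not hold for the data. Alternatives were median centring, normexp fitted on all spots, the processed signals of Feature Extraction, and stricter and no filters. Others were each array left out, each time alone, a t-test, the replicate number as a block, and the median over the probes of a gene. The t-test was of the log2 ratios of each time against 0, with Benjamini-Hochberg adjustment. The methods name a Student's t test between the control and DEP groups, which is another test. Marker lists for respiratory and gland epithelium, neutrophils and erythroid cells were looked at as well.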

Additional observations from a re-analysis of the deposited data

Results flagged for a closer look

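The log2 ratio differed between 8 and 4 weeks for 11 of the 17 tested probes by a test of the difference itself (limma, adjusted p of at most 0.05, beside 30.0% of all tested probes). For *Gapdh* the differences, 8 minus 4 weeks, were -0.71 (probe 1), -0.57 (probe 2), -0.61 (probe 3), -0.55 (probe 4), -0.79 (probe 6) and -0.96 (probe 7). *Gusb* gave -0.46, and *Ywhaz* gave -0.45 (probe 1) and -0.32 (probe 3). The differences of *Hprt* (0.42) and *B2m* (0.62) ran the other way. Exposure time and slide cannot be told apart in these values. No 4-week group of a member probe held an array far from the other 3 by Dixon's criterion (0 of 17 groups, where chance flags about 1 in 20).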

How the results depend on the processing

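The count of member probes called at 4 weeks (9) was 4 under median centring and 4 to 10 when an array was left out, with 4, 5 and 5 without 4-week replicate 2, 3 or 4. At 8 weeks (7) it was 1 by the t-test. It was 3 to 8 when an array was left out, with 3 and 4 without 8-week replicate 2 or 3. For the difference (11) it was 6 to 12, with 6 without 8-week replicate 2. The pairing check gave correlations of -0.0065, -0.0067 and 0.017 between arrays of the same number, and of -0.051 to 0.066 between arrays of different numbers. These values show no sign that the numbers pair samples, but so few arrays cannot exclude it. With the replicate block 5 probes were called in the difference (3714 of all probes, beside 7557). Over all probes the count at 4 weeks (9322) was 5817 with normexp fitted on all spots and 5431 by the t-test. At 8 weeks (9096) it was 438 by that test, 5135 without 8-week replicate 2 and 6718 without 8-week replicate 3. That of the difference was 4523 without 8-week replicate 2. Calls over all probes split into 5234 higher and 4088 lower at 4 weeks and 4727 and 4369 at 8 weeks, and under median centring into 3778 and 5202 and into 2808 and 8283. The processed signals gave calls for *Tbp* at 4 weeks (0.32, adjusted p = 0.025) and in the difference (-0.48, adjusted p = 0.030). They also gave calls at 8 weeks for *Gapdh* (-0.47, adjusted p = 0.019) and *Ppia* (-0.30, adjusted p = 0.0057). The t-test lost the calls of *B2m*, *Ppia* and *Ywhaz* at 4 weeks and of *Hprt*, *B2m* and *Pgk1* at 8 weeks (adjusted p between 0.060 and 0.20). The signs of several values turned: *Tbp* at 8 weeks to -0.028 (median centring) and -0.16 (processed signals) and in the difference to 0.0021 (normexp on all spots), *B2m* at 8 weeks to -0.030, *Pgk1* to -0.11 at 8 weeks and -0.0049 in the difference (all by median centring), and *Ywhaz* at 4 weeks to -0.025 (median over its probes). When an array was left out, *Hprt* at 4 weeks ran from -0.063 to 0.033, *Pgk1* at 4 weeks from -0.025 to 0.015, *Gapdh* at 8 weeks from -0.34 to 0.057, *Tbp* at 8 weeks from -0.013 to 0.092, *Ppia* at 8 weeks from -0.041 to 0.020 and *Tbp* in the difference from -0.095 to 0.014. The cause of these shifts was not tested. At 4 weeks the *Gapdh* mean stayed between 0.32 and 0.59 under all alternatives, with adjusted p of at most 0.035 where it was tested.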

Other observations

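Beside 38.4% of all genes called in either direction at 4 weeks and 37.1% at 8 weeks, other marker lists moved as follows. Of 10 neutrophil markers 1 rose and 6 fell at 4 weeks, and 2 rose and 6 fell at 8 weeks. Their median log2 ratios were -0.67 and -0.82. *S100a9*, a calcium-binding alarmin, was the lowest at both times, at -1.71 and -1.80. *Csf3r* was the highest, at 1.28 and 1.07. Their summed signal at 4 weeks was 36177 to 43644 in the DEP channel and 37853 to 38687 in the control channel. At 8 weeks the ranges were 42529.5 to 47954.8 and 40147.3 to 42090.5. Of 8 markers of respiratory and gland epithelium 1 rose and 1 fell at 4 weeks, and 4 rose and 2 fell at 8 weeks, where *Muc5b*, a mucin, was the lowest at -1.54. Of 4 tested erythroid markers 3 rose at 4 weeks, and 1 rose and 3 fell at 8 weeks.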
